A study of Mus musculus with 19 samples.

Results

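Genes of cholesterol efflux and lipid storage were followed in the mouse ovary after loss of the Hedgehog ligands Dhh, Ihh or both. The 10 genes were chosen by name: Abca1, Abcg1, Apoe, Nr1h3 and Lipg on the efflux and lipoprotein side, Plin2, Hilpda and Soat1 on the storage side, and Lipa and Cd36 for the release and uptake of lipid. Abca1, Lipg and Hilpda were put on the list because their signals had been seen to change on these same arrays, so their differences are given as descriptions with no test. The other members were not picked for a change. Probe sets annotated to a single gene were found for 9 of the 10 members, 18 probe sets in all, out of 34945 single-gene probe sets for 18193 genes. All 9 genes passed the filter on low signals and were among the 12379 genes tested. Soat1, the enzyme that esterifies cholesterol for storage, had no probe set of its own in the probe annotation used and was not analysed here.

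RNA of whole ovaries from mice 2 months old had been hybridized to 19 Affymetrix mouse expression arrays. The 8 control arrays (Ihh_Dhh_dhet) came from mice heterozygous for both Dhh and Ihh, so wild-type ovaries are not part of the comparison. The mutant groups were Dhh_KO with 4 arrays, Ihh_KO with 4 arrays and Ihh_Dhh_dKO, called DKO here, with 3 arrays. The labels call the deletion ovary-specific. The sources used here do not name the promoter or Cre line behind it, or the state of the second ligand in the single knockouts. They also do not say whether each array is a separate animal, so the p-values below measure only the spread between these samples.

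Cells export surplus cholesterol through the ABC transporters Abca1 and Abcg1 onto lipoprotein particles, with Apoe and related proteins as acceptors, and the sterol-sensing nuclear receptors of the LXR class, among them Nr1h3, switch these genes on. Cholesterol that is not exported is esterified and kept in lipid droplets coated by proteins such as Plin2, and Lipa frees it again in the lysosome. In the ovary, theca and luteal cells draw on these pools to make steroid hormones.

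The arrays fall into 2 hybridization sets. The 3'/5' signal ratio of the BioC spike-in lay between 0.987 and 1.06 on controls 1 to 4 and the DKO arrays, and between 0.685 and 0.781 on controls 5 to 8 and the single knockouts. Each mutant group was therefore set against the 4 controls of its own set. The targeted genes checked the labels on every array but 1. The Dhh signal was at least 606 on all 8 controls and at most 25.4 on the arrays of Dhh KO and DKO. It stood at 527 to 709 on Ihh KO 1 to 3 but at 2.96 on the array labelled Ihh KO 4, where Ihh read 108 against 12.5 to 43.5 on the other Ihh KO arrays. The fitted Ihh KO differences of the members are therefore given with and without the array labelled Ihh KO 4, and no sample was moved to another group.

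Abca1, the transporter that starts cholesterol efflux by loading phospholipid and cholesterol onto apolipoprotein A-I, was lower in DKO and on the arrays labelled Ihh KO 1 to 3, and showed no such fall in Dhh KO. Its brightest probe set read 3091, 4337, 5867 and 3779 on controls 1 to 4. On DKO 1 to 3 it read 2275, 2746 and 2231. All 3 DKO arrays lay below the lowest of their controls. On controls 5 to 8 the signals were 3703, 4447, 6459 and 3926. On the arrays labelled Ihh KO 1 to 4 they were 1695, 2440.5, 3091 and 4880. The first 3 of these lay below every control of the set, while the array labelled Ihh KO 4 lay above 3 of the 4 controls. On Dhh KO 1 to 4 the signals were 4941, 4056, 4138 and 3332, within the range of the controls apart from Dhh KO 4, which was lowest.

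In group means, Abca1 stood at 4269 ± 1181 on controls 1 to 4 (SD, n = 4) and at 2417 ± 285 in DKO (SD, n = 3), which is 1.77-fold lower. It stood at 4634 ± 1256 on controls 5 to 8 (SD, n = 4) and at 2409 ± 698 on Ihh KO 1 to 3 (SD, n = 3), which is 1.92-fold lower. With the array labelled Ihh KO 4 the Ihh KO mean was 3027 ± 1361 (SD, n = 4). On the log2 scale, here log2 of the signal plus 7.02, the fitted difference was -0.79 (SE 0.28) in DKO, -0.95 (SE 0.23) on Ihh KO 1 to 3, -0.68 (SE 0.25) on all 4 Ihh KO arrays and -0.15 (SE 0.25) in Dhh KO. These log2 differences understate the change of genes with low signals. In RNA of whole ovaries, fewer cells that carry Abca1 and less Abca1 RNA per cell cannot be told apart, and the same holds for every gene below.

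The other Abca1 probe sets differed in the same direction in DKO and Ihh KO. Their log2 differences were -1.01 and -0.99 in DKO, -1.06 and -1.28 on Ihh KO 1 to 3, and -0.06 and -0.15 in Dhh KO. Across the 19 arrays the 3 probe sets correlated at r = 0.952 to 0.989, each array taken against the control mean of its set. These points share their arrays and, for the controls, possibly their RNA, and the correlation describes agreement between probe sets only.

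The start of Abca1 is shown because its promoter is a textbook target of the LXR receptors. The RefSeq window in GRCm38.p6 runs from 250 bases before to 50 bases after the annotated start, on the minus strand at chr4:53159846-53160145. Capitals mark the CACGTG motif at -147 to -142, a match to a relaxed LXR element on the opposite strand at -67 to -53, and TATAAA at -29 to -24, counted from the start site.
Abca1: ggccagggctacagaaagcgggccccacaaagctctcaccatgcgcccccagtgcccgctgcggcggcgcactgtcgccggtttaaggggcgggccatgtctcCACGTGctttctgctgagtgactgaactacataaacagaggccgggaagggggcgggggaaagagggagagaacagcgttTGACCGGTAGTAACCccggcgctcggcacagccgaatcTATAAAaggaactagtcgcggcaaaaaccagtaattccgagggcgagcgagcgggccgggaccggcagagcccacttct
The LXR receptor and its partner RXR bind a direct repeat of a half-site with a spacer of 4 bases. The relaxed form searched was GGTNA and GGTCA with 5 free bases between them. It was searched on both strands and occurred in 68 of 32851 promoter windows of the same length, 0.207%. Among the 12 windows of 8 members, which hold none of Abcg1 or Lipg, the window of Abca1 was the only match. The stricter form, AGGTCA repeated after 4 free bases, occurred in 0.0152% of all windows and in 0 of these 12. CACGTG was found in 7.15% of all windows and in 2 of the 12, those of Abca1 and Plin2. TATAAA, searched on the given strand, was found in 8.32% of all windows and in 2 of the 12, those of Abca1 and Apoe. A match describes letters in the window and says nothing of binding in these ovaries.

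**Figure D1:**
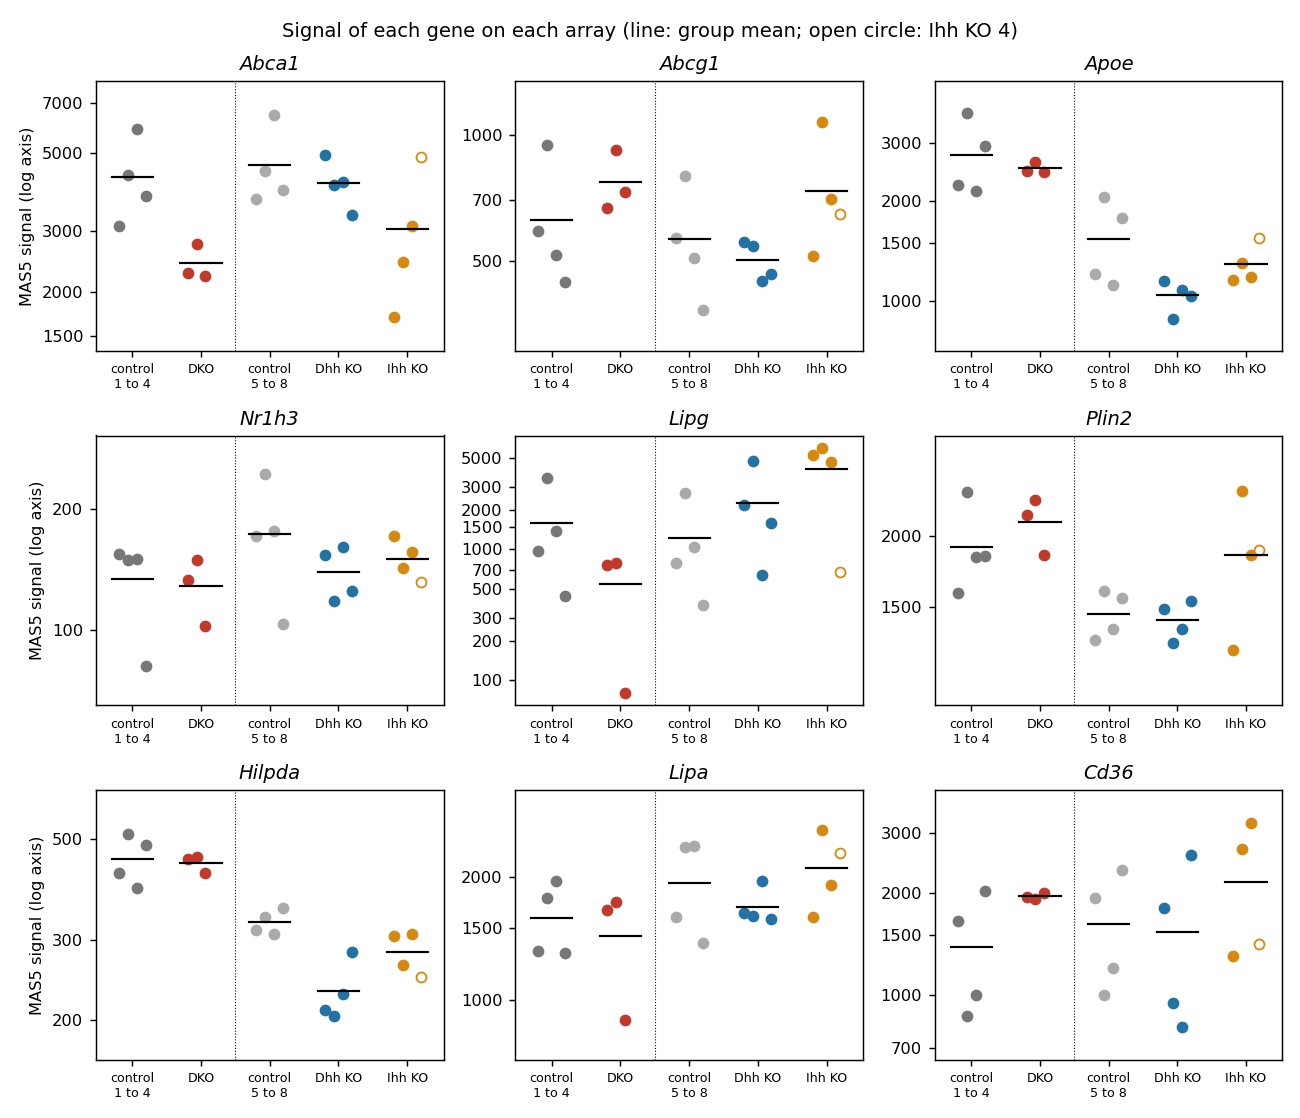
Deposited signal of each member on each of the 19 arrays, on a log axis, with 1 panel per gene and the brightest probe set shown; points are arrays, grouped by hybridization set and genotype, horizontal lines are group means, and the open circle is the array labelled Ihh KO 4. Abca1 lies between 2231 and 2746 on the DKO arrays and at 3091 or higher on their controls, Hilpda lies at 283 or lower in Dhh KO and at 309 or higher on its controls, and Lipg spans more than any other member within the control groups.

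The efflux members that were tested, Abcg1, Apoe and Nr1h3, did not pass the threshold, and Abca1 itself was not tested. Of the 6 tested members that were not picked for a change, none was called in any of the 4 comparisons by limma at an adjusted p of 0.05. The background was 3.02% of the 12379 genes called in DKO (1.57% higher, 1.45% lower), 0.0162% in Ihh KO, all lower, and 0% in Dhh KO. It was 0.388% on Ihh KO 1 to 3 (0.0646% higher, 0.323% lower). For the joint change, the DKO difference minus the sum of the single-knockout differences, it was 0.0242% (0.00808% higher, 0.0162% lower). With few genes called in the single knockouts, a count of 0 among 6 members lies near the background there. In Dhh KO, limma gave 1252 genes at an unadjusted p under 0.05 with 0 genes called after adjustment. None of the 6 members had mutant signals wholly outside those of the controls in any comparison, where 13.2% of the tested genes did so in DKO, 12.7% on Ihh KO 1 to 3, 6.28% with all 4 Ihh KO arrays (2.29% higher, 3.99% lower) and 5.46% in Dhh KO.

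Abcg1 passes cholesterol to particles that already hold lipid, the step after Abca1. Its signal was 590, 947, 517 and 446 on controls 1 to 4 and 668, 920.3 and 729 on DKO 1 to 3. On controls 5 to 8 it was 567, 798, 508 and 382, on Dhh KO 1 to 4 it was 555, 544, 449 and 467, and on Ihh KO 1 to 4 it was 513, 1075, 703 and 648. The groups overlapped in each comparison, with controls 4 and 8 lowest in their sets and control 2 above all 3 DKO arrays. By limma the log2 difference was 0.35 in DKO (SE 0.26, adjusted p = 0.56) and 0.37 in Ihh KO (SE 0.24, adjusted p = 0.50), or 0.42 on Ihh KO 1 to 3 (SE 0.27, adjusted p = 0.46). In Dhh KO it was -0.12 (SE 0.24, adjusted p = 0.91). Where Abca1 lay lower, this Abcg1 probe set thus had differences above 0 that did not pass. A second Abcg1 probe set, with signals of 29.9 to 102.5, lay under the filter and correlated with the first at only r = 0.433 over the 19 arrays. Its log2 differences lay below 0, at -0.45 in DKO, -0.05 in Ihh KO, -0.01 on Ihh KO 1 to 3 and -0.19 in Dhh KO.

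Apoe, the apolipoprotein that receives exported cholesterol and is made by theca and stromal cells and by macrophages, had the largest difference of the 6 tested members in Dhh KO, and it did not pass. Controls 5 to 8 read 1211, 2060.1, 1116 and 1781, and Dhh KO 1 to 4 read 1155, 887, 1084 and 1040.4. The Dhh KO array with the highest Apoe signal lay above the lowest control, so the groups overlapped. The Dhh KO mean was 1042 ± 113 against 1542 ± 453 on the controls (SD, n = 4 each), a log2 difference of -0.52 (SE 0.18, limma adjusted p = 0.38). Ihh KO 1 to 4 read 1161, 1306, 1181 and 1550 (-0.21, SE 0.18, limma adjusted p = 0.64; on Ihh KO 1 to 3 -0.30, SE 0.20, limma adjusted p = 0.48). In the first set the controls read 2248, 3685, 2156 and 2926 and the DKO arrays 2462, 2632 and 2445 (-0.10, SE 0.20, limma adjusted p = 0.87). Apoe is the member whose controls differed most between the sets, with a log2 difference of -0.85 for controls 5 to 8 against 1 to 4. Setting the mutants against all 8 controls as 1 group turned the sign of the DKO difference to 0.325 (limma adjusted p = 0.455).

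Nr1h3 encodes LXRα, the receptor that drives Abca1, Abcg1 and Apoe, and its signals ran from 81.2 to 244. Controls 1 to 4 read 154, 149.7, 150.01 and 81.2, and DKO 1 to 3 read 133, 149.8 and 102. Controls 5 to 8 read 171, 244, 177 and 104, Dhh KO 1 to 4 read 154, 118, 161 and 125, and Ihh KO 1 to 4 read 171, 143, 156 and 132. The groups overlapped throughout. By limma the log2 differences were -0.26 in Dhh KO (SE 0.24, adjusted p = 0.76), -0.15 in Ihh KO (SE 0.24, adjusted p = 0.81), -0.09 on Ihh KO 1 to 3 (SE 0.26, adjusted p = 0.90) and -0.03 in DKO (SE 0.26, adjusted p = 0.97).

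Lipg, the endothelial lipase that hydrolyses phospholipids of high-density lipoprotein, varied more than any other member. On controls 1 to 4 its brightest probe set read 968, 3552, 1389 and 440.4, and on controls 5 to 8 it read 788, 2716, 1039 and 377. The controls of 1 set thus spanned 2.99 on the log2 scale and those of the other 2.83, with control 2 or 6 highest and control 4 or 8 lowest. On the arrays labelled Ihh KO 1 to 4 Lipg read 5273, 6004, 4688 and 675. The first 3 lay above every control, and the array labelled Ihh KO 4 lay among the controls. On Dhh KO 1 to 4 it read 2182, 4757, 632 and 1597, and these overlapped the controls. On DKO 1 to 3 it read 761, 792 and 79.5, so 2 arrays lay inside the control range and DKO 3 lay far below it.

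In group means Lipg stood at 5322 ± 659 on Ihh KO 1 to 3 (SD, n = 3) against 1230.1 ± 1028 on controls 5 to 8 (SD, n = 4), which is 4.33-fold higher. The other Lipg probe sets were 4.78-fold and 4.57-fold higher in the same comparison. The fitted log2 difference was 2.46 (SE 0.82) on Ihh KO 1 to 3, 1.72 (SE 0.86) with all 4 Ihh KO arrays, 0.90 (SE 0.86) in Dhh KO and -1.69 (SE 0.92) in DKO. The standard errors of Lipg are the widest among the members. Its difference thus had opposite signs in the single knockouts and in DKO, where 1 array carried most of it. The joint change of Lipg, fitted at -4.31 (SE 1.75), is a description with no test. The 3 Lipg probe sets correlated at r = 0.979 to 0.997 over the 19 arrays. The promoter window of Lipg is not printed here.

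**Figure D2:**
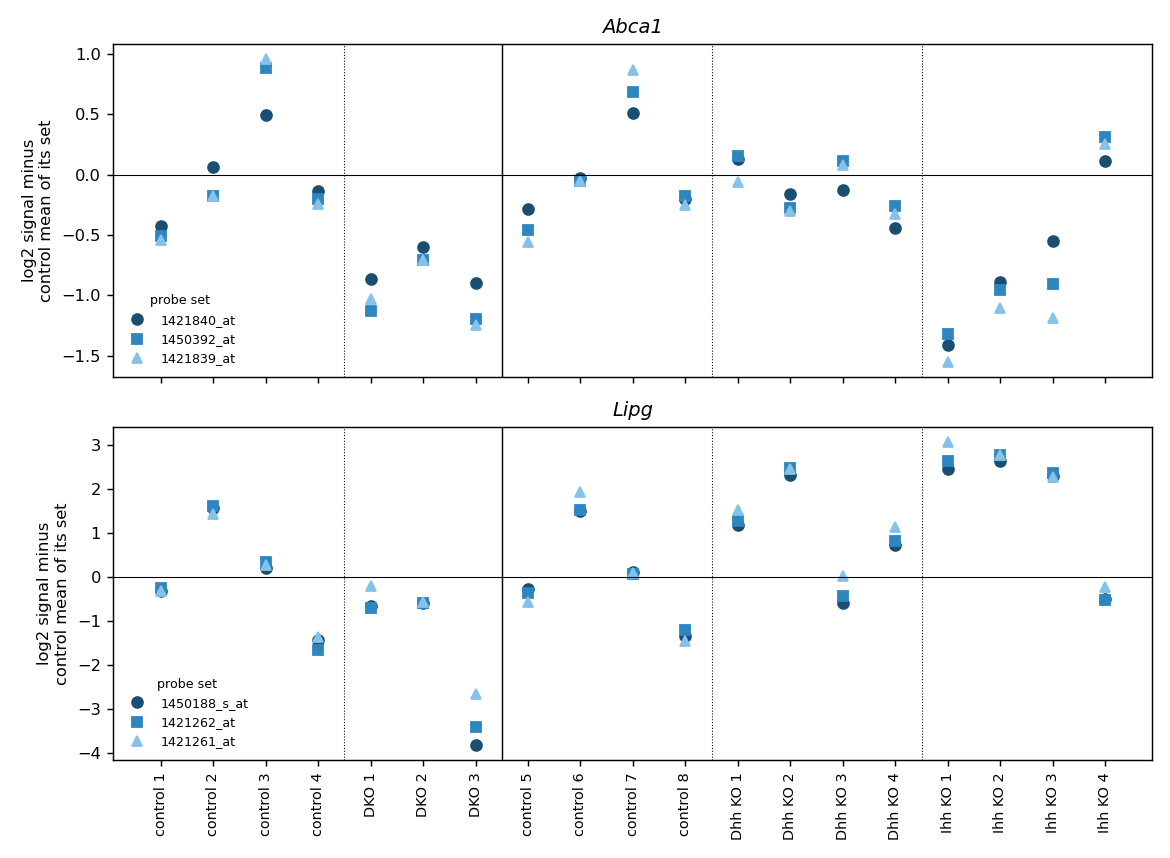
Log2 signal of each of the 3 probe sets of Abca1 (upper panel) and Lipg (lower panel) on the 19 arrays, minus the control mean of the hybridization set; symbols are probe sets, the solid vertical line parts the sets and dotted lines part the groups. All 3 Abca1 probe sets lie below 0 on DKO 1 to 3 and Ihh KO 1 to 3, all 3 Lipg probe sets lie above 0 on Ihh KO 1 to 3, and DKO 3 is lowest for Lipg.

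Of the 9 members, Abca1 alone had DKO signals wholly outside those of its controls, and it lay lower, where 6.07% of the tested genes lay wholly lower and 7.08% wholly higher. On Ihh KO 1 to 3, Abca1 lay wholly lower and Lipg wholly higher, against 7.63% and 5.1% of the tested genes. In Dhh KO, Hilpda alone did so, lower, against 3.27% of the tested genes wholly lower and 2.19% wholly higher. These genes were chosen on the same contrasts, and nothing is read from their counts.

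**Figure D3:**
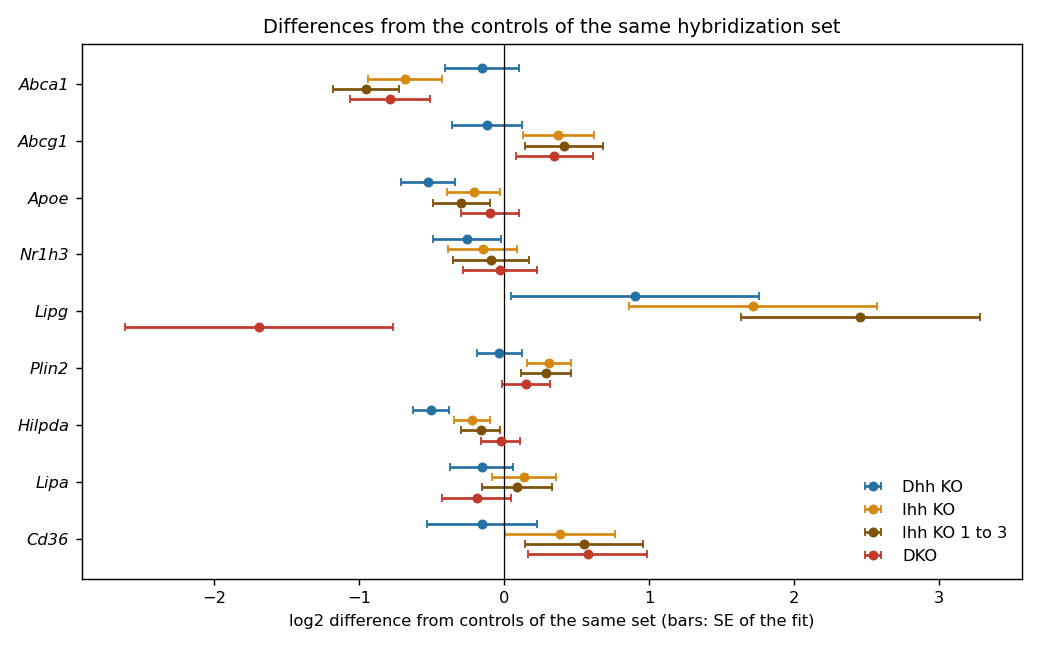
Fitted log2 difference of each member against the controls of its own hybridization set, with standard error bars, for Dhh KO, Ihh KO with and without the array labelled Ihh KO 4, and DKO. Abca1 lies at -0.79 in DKO and -0.95 on Ihh KO 1 to 3, Lipg runs from 2.46 down to -1.69, Hilpda lies at -0.50 in Dhh KO, and the 6 other members lie between -0.52 and 0.58 with wide error bars.

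Hilpda, a small lipid droplet protein that inhibits triglyceride breakdown and is induced by low oxygen and by fatty acids, was lower in Dhh KO. Controls 5 to 8 read 315, 337, 309 and 353, the tightest control group of any member. Dhh KO 1 to 4 read 210.2, 205, 228 and 283. All 4 Dhh KO arrays lay below the lowest control, and their mean of 231 ± 35.7 was 1.42-fold under the control mean of 328 ± 20.1 (SD, n = 4 each). Ihh KO 1 to 4 read 307, 264, 309.5 and 248.9. In the first set the controls read 420.3, 513, 391 and 485, and DKO 1 to 3 read 453, 457 and 422. The DKO arrays lay inside the control range. The fitted log2 difference was -0.50 (SE 0.12) in Dhh KO, -0.22 (SE 0.12) in Ihh KO, -0.16 (SE 0.13) on Ihh KO 1 to 3 and -0.02 (SE 0.13) in DKO.

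A measure of RNA quality differed between Dhh KO and its controls, as Hilpda did. The Gapdh 3'/5' ratio, which rises when RNA is degraded or amplified from its 3' end, ran from 2.08 to 2.79 in Dhh KO and from 1.89 to 2.01 among controls 5 to 8. It was 1.90 to 2.37 in Ihh KO, 1.69 to 1.804 on controls 1 to 4 and 1.68 to 1.78 in DKO. On Dhh KO 1 to 4 the ratio was 2.68, 2.79, 2.08 and 2.54, beside Hilpda signals of 210.2, 205, 228 and 283. Dhh KO 2 had the highest ratio and the lowest Hilpda signal, while Dhh KO 3 had the lowest ratio and not the highest signal. The part of RNA quality in the Hilpda and Apoe differences of Dhh KO was not tested. Hilpda has a single probe set, so the fall could not be compared between probe sets.

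Hilpda has 2 RefSeq start sites. The gene is a textbook target of the hypoxia-inducible factors. Of the core letters these factors bind, only the form ACGTG was searched and marked. The downstream window, which held ACGTG, is shown, while the upstream window held none. The window shown lies on the plus strand of GRCm38.p6 at chr6:29272376-29272675, with the ACGTG at -43 to -39 in capitals.
Hilpda: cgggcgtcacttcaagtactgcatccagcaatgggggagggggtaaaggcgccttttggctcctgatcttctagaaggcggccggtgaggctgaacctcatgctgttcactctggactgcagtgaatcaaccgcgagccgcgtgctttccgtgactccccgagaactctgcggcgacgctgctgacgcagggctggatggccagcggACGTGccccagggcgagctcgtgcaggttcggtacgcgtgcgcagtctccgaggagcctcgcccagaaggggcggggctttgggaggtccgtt
ACGTG, searched on both strands and contained in CACGTG, was found in 19.6% of all windows and in 3 of the 12 windows of members, those of Abca1, Plin2 and Hilpda. None of the 16 other hypoxia-inducible genes tested was called in any of the 3 mutant comparisons. Their median log2 difference was 0.02 in Dhh KO, -0.01 in Ihh KO (-0.05 on Ihh KO 1 to 3, 0 called) and -0.01 in DKO, where the medians of all tested genes were -0.03, -0.02 and 0.02. Pdk1, the kinase that slows pyruvate entry into mitochondria, had the smallest p of that list, with -0.59 in Dhh KO (SE 0.17, limma adjusted p = 0.30).

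Plin2, the main coat protein of lipid droplets in steroid-making cells, did not differ past the threshold in any group. It read 1587, 2389, 1839 and 1844 on controls 1 to 4 and 2177, 2311 and 1856 on DKO 1 to 3. On controls 5 to 8 it read 1313, 1599, 1375 and 1557, on Dhh KO 1 to 4 1492, 1297, 1373 and 1540.3, and on Ihh KO 1 to 4 1263, 2402, 1857 and 1894. In Ihh KO 3 of the 4 arrays lay above every control and Ihh KO 1 lay below them all. The log2 difference was 0.31 in Ihh KO (SE 0.15, limma adjusted p = 0.38) and 0.29 on Ihh KO 1 to 3 (SE 0.17, limma adjusted p = 0.43). In DKO it was 0.15 (SE 0.17, limma adjusted p = 0.72) and in Dhh KO -0.03 (SE 0.15, limma adjusted p = 0.96).

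Among 15 other tested genes of the lipid droplet coat and its turnover, none was called in any mutant comparison. Their median was 0.19 in Ihh KO (0.17 on Ihh KO 1 to 3, 0 called), -0.03 in Dhh KO and -0.05 in DKO. Plin4, a coat protein best known from fat cells, had the widest difference of the genes named from that list, 1.99 in Ihh KO (SE 0.91, limma adjusted p = 0.34), with signals of 247 to 2610.2 in Ihh KO and 79.5 to 1219 on controls 5 to 8. On Ihh KO 1 to 3 Plin4 lay at 2.77 (SE 0.87, limma adjusted p = 0.147). Plin3, a coat protein of small droplets, lay at -0.52 in Ihh KO (SE 0.14, limma adjusted p = 0.14) and at -0.52 on Ihh KO 1 to 3 (SE 0.15, limma adjusted p = 0.117). G0s2, an inhibitor of the lipase Pnpla2, lay at -0.46 in Dhh KO (SE 0.14, limma adjusted p = 0.30). None of these 3 differences passed the threshold.

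Lipa, the lysosomal acid lipase that frees cholesterol from lipoprotein and droplet esters, did not differ past the threshold in any group. Its brightest probe set read 1299 to 1951 on controls 1 to 4, with a median of 1545, and 1657, 1736 and 892 on DKO 1 to 3. It read 1378 to 2378 on controls 5 to 8, 1576 to 1952 in Dhh KO and 1592 to 2605 in Ihh KO. On this probe set DKO 3 was the lowest of the 19 arrays. On the other Lipa probe sets DKO 3 read 1266 and 793, also below the lowest of controls 1 to 4 (1360.5 and 901). On those probe sets it lay above control 8 (1029.6) and Dhh KO 2 (553) of the second set, respectively. The log2 differences were -0.19 in DKO (SE 0.24, limma adjusted p = 0.77), 0.14 in Ihh KO (SE 0.22, limma adjusted p = 0.81), 0.09 on Ihh KO 1 to 3 (SE 0.24, limma adjusted p = 0.89) and -0.15 in Dhh KO (SE 0.22, limma adjusted p = 0.86). Among 9 other tested genes of cholesterol esterification and lysosomal export, none was called, with medians of 0.01 in Dhh KO, 0.03 in Ihh KO, 0.06 on Ihh KO 1 to 3 and -0.13 in DKO. Npc2, which hands cholesterol out of the lysosome, had the smallest p there, at 0.34 in Ihh KO (SE 0.11, limma adjusted p = 0.21) and 0.38 on Ihh KO 1 to 3 (SE 0.12, limma adjusted p = 0.158).

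Cd36, a membrane receptor for fatty acids and oxidised lipoprotein on macrophages, endothelium and fat cells, overlapped its controls in every group. Its brightest probe set read 1657, 868, 1002 and 2020.1 on controls 1 to 4 and 1941, 1922 and 1998 on DKO 1 to 3. The DKO arrays were close together at the upper end of the control range, with a mean of 1954 ± 39.3 (SD, n = 3) against 1387 ± 545 (SD, n = 4). On controls 5 to 8 it read 1926, 1002, 1199 and 2329, on Ihh KO 1 to 4 1301, 2686, 3213 and 1414, and on Dhh KO 1 to 4 1800.1, 945, 806 and 2582. By limma the log2 difference was 0.58 in DKO (SE 0.41, adjusted p = 0.53), 0.39 in Ihh KO (SE 0.38, adjusted p = 0.67), 0.55 on Ihh KO 1 to 3 (SE 0.41, adjusted p = 0.52) and -0.15 in Dhh KO (SE 0.38, adjusted p = 0.92). The dimmest of the 3 Cd36 probe sets went the other way in Ihh KO, at -0.27 against 0.39 and 0.46, and on Ihh KO 1 to 3 at -0.24 against 0.55 and 0.60.

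The controls of the 2 sets went together in pairs. Over all tested genes, controls 1 and 5 deviated from their set means with r = 0.538, controls 2 and 6 with 0.752, controls 3 and 7 with 0.695, and controls 4 and 8 with 0.771. Among the 9 members the same pair was highest in both sets for 7 genes, and the lowest pair was shared by both sets for 9. Control 3 and its match 7 were highest for Abca1, and controls 2 and 6 were highest for Abcg1, Apoe, Lipg and Plin2. Controls 4 and 8 were lowest for Abcg1, Nr1h3, Lipg and Lipa. Whether the same RNA was hybridized in both sets is not given in the sources used here. The spread of the members among controls thus repeats between sets, and pooling all 8 controls would count it more than once if the RNA is shared.

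**Figure D4:**
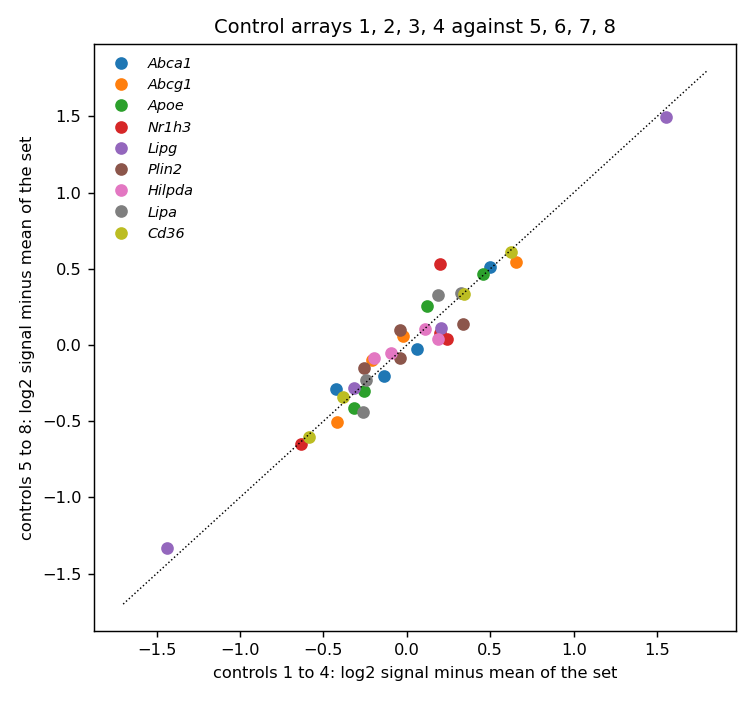
Deviation of each member from its set's control mean, on the log2 scale, for controls 1 to 4 against their matched controls 5 to 8. Each point is 1 gene in 1 pair of controls, and the dotted line marks equal deviations; the points of Lipg reach furthest from 0 in both sets, and for each of the 9 genes the lowest control of 1 set is the match of the lowest of the other.

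For the other genes of the LXR system and its targets, 9 were tested besides the members. In DKO 1 of the 9 was called higher and 0 lower, against 1.57% higher and 1.45% lower over all genes. Their median was 0.19 against 0.02 over all genes. The called gene was Lpl, lipoprotein lipase, which frees fatty acids from circulating lipoproteins. It rose from 2748 ± 413 on controls 1 to 4 (SD, n = 4) to 4891 ± 617 in DKO (SD, n = 3), a log2 difference of 0.84 (SE 0.19, limma adjusted p = 0.0182). Its DKO signals, 4288 to 5522, did not overlap those of the controls, 2159 to 3087. Without control 3 the difference was 0.73 (limma adjusted p = 0.0706), and without DKO 3 it was 0.75 (limma adjusted p = 0.101). With each array centred on its median it was 0.81 (limma adjusted p = 0.101). Mylip, which marks lipoprotein receptors for degradation, lay at 0.71 in DKO (SE 0.22, limma adjusted p = 0.0939) and did not pass.

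Lpl also belongs to the lists of efflux and of fatty acid uptake, and it was the only gene called in either. Of 9 other efflux and lipoprotein genes 1 was higher and 0 lower in DKO, with a median of -0.18. Scarb1, the receptor that takes cholesterol esters from high-density lipoprotein into steroid-making cells, lay at -1.21 in DKO (SE 0.37, limma adjusted p = 0.0868). Abcg4, a relative of Abcg1, lay at -1.09 (SE 0.33, limma adjusted p = 0.09). Of 8 other genes of fatty acid uptake, 1 was higher and 0 lower in DKO, with a median of -0.17. In Dhh KO, in Ihh KO and on Ihh KO 1 to 3 none of the 3 lists had a called gene. Over all genes tested, 1.57% were called higher and 1.45% lower in DKO. All these lists share genes, so their counts are not independent.

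Of 17 tested genes of cholesterol synthesis and its control, 15 had a difference above 0 in Ihh KO (median 0.54), 14 in Dhh KO (median 0.17) and 0 in DKO (median -0.33). Over the 12379 genes tested, 5690 lay above 0 in Ihh KO (median -0.02), 5410 in Dhh KO (median -0.03) and 6692 in DKO (median 0.02). No gene of cholesterol uptake was among the 17. None passed the threshold in these comparisons with all arrays. On Ihh KO 1 to 3 the median was 0.80, and Ebp, a sterol isomerase of late cholesterol synthesis, was called at 0.81 (limma adjusted p = 0.0189). The median deviation of this list was highest on Ihh KO 2 (1.32) and Ihh KO 1 (0.93), which also had the highest Lipg signals of the 19 arrays and the lowest Abca1 signals outside DKO. Ihh KO 3, with Lipg of 4688, had a list deviation of only 0.16.

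Of 9 tested steroidogenic genes, 3 fell in DKO, Fdx1, Star and Cyp11a1, and 0 rose, with a median of -0.85 against 0.02 over all genes, and none was called in the single knockouts. The share called over all genes tested in DKO was 1.45% lower and 1.57% higher. Fdx1, the electron donor of the side-chain cleavage enzyme, was lower by a log2 difference of -0.85 (SE 0.13, limma adjusted p = 0.0018). Star, which carries cholesterol into mitochondria, was lower by -1.79 (SE 0.34, limma adjusted p = 0.00744). Cyp11a1, the side-chain cleavage enzyme, was lower by -1.58 (SE 0.41, limma adjusted p = 0.0427), and without DKO 3 by -0.79 (limma adjusted p = 0.148). Its call was lost under 18 of the alternatives run and kept under 13, while Fdx1 and Star each lost theirs under 1. All 3 calls were lost with only the 7 arrays of the first set in the fit, where the limma adjusted p was 0.112 for Star, 0.0542 for Fdx1 and 0.245 for Cyp11a1.

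Markers of other cell types moved with several members. As background, 6692 of the 12379 genes tested lay above 0 in DKO and 5690 in Ihh KO. The count was 5643 on Ihh KO 1 to 3 and 5410 in Dhh KO. In DKO 1.57% of the genes tested were called higher and 1.45% lower. Of 11 macrophage markers tested, 9 lay above 0 in DKO (median 0.55, 0 called higher, 1 lower), 9 above 0 in Ihh KO (median 0.28; 8 and 0.27 on Ihh KO 1 to 3) and 0 above 0 in Dhh KO (median -0.26). Their summed signal was 12188 to 22652 on controls 1 to 4 and 17917 to 24105 in DKO. It was 10468 to 18649 on controls 5 to 8, 10728 to 12667 in Dhh KO and 11284 to 19911 in Ihh KO. Over the 19 arrays the median deviation of these markers correlated with Abcg1 at r = 0.868 and with Plin2 at 0.604. The correlation with Abcg1 was 0.886 over the 12 arrays of the second set and 0.904 over the 7 of the first. Cd14 and Itgam, also on the macrophage list, lay under the filter and were not among the 11. The part of macrophage RNA in the Abcg1 and Plin2 values was not tested.

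Corpus luteum markers moved with Lipg. Their median deviation correlated with Lipg at r = 0.848 over the 19 arrays and at 0.746 without DKO 3, where the markers stood at -1.97. Of 7 tested, 5 lay above 0 in Ihh KO (median 0.43, 0 called) and 5 on Ihh KO 1 to 3 (median 0.53, 0 called). In DKO 3 lay above 0 (median -0.38), and 1 was called lower, Star. Star and Hsd3b1 are also on the steroidogenic list. The summed signal of the 7 markers was 18594 to 37123 on controls 5 to 8 and 28210.0 to 47371 in Ihh KO (40068 to 47371 on Ihh KO 1 to 3). It was 18878 to 43403 on controls 1 to 4 and 15696 to 25015 in DKO. Control 4 and control 8, the lowest controls for Lipg, had marker deviations of -0.93 and -0.84. Endothelial markers correlated with Lipg at 0.756 over the 19 arrays and at 0.63 without DKO 3. Of 11 endothelial markers tested 10 lay above 0 in Ihh KO (median 0.31, or 0.27 on Ihh KO 1 to 3, 0 called) and 10 below 0 in DKO (median -0.45, 2 called lower). Their summed signal was 6613 to 8615 on controls 5 to 8, 6892 to 10956 in Ihh KO, 6030.1 to 8034 on controls 1 to 4 and 4138 to 5899 in DKO. As background, 5690 of the 12379 genes tested lay above 0 in Ihh KO. In DKO 5687 lay below 0 and 1.45% were called lower. Granulosa and oocyte markers ran opposite to Lipg, with r = -0.771 and -0.766 over the 19 arrays. The part of luteal, endothelial, granulosa and oocyte content in the Lipg values was not tested.

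Theca markers, a list that holds the Hedgehog targets Ptch1 and Hhip, correlated with Abca1 at r = 0.665 over the 19 arrays and at 0.784 over the 12 of the second set. Of 6 tested, 0 lay above 0 in DKO (median -1.20, 4 called lower). In Ihh KO 2 lay above 0 (median -0.43, 1 called lower). On Ihh KO 1 to 3 also 2 lay above 0 (median -0.59, 3 called lower). Those called there were Hhip, Ptch1 and Aldh1a1, while Cyp11a1 (0.49) and Hsd3b1 (0.07) lay above 0. As background, 6692 of the 12379 genes tested lay above 0 in DKO, with 1.57% called higher and 1.45% lower. In Ihh KO 5690 lay above 0 and 0.0162% were called lower, and on Ihh KO 1 to 3 5643 and 0.323%. The summed signal of the 6 theca markers was 22038 to 27111 in DKO against 37960.0 to 49261 on its controls. It was 31229 to 39534 in Ihh KO against 34878 to 39214. The part of theca content in the Abca1 values was not tested. Fat cell markers lay above 0 in DKO for 5 of 5 tested genes (median 1.33, 1 called), with summed signals of 5991 to 22997 against 4195 to 8535. The called gene is Lpl itself, which is on that list. Adipoq, an adipocyte hormone, ran from 34.9 to 2301 among the 3 DKO arrays and from 30.1 to 329 on their controls. Cd36 correlated with these markers at r = 0.412 over the 19 arrays, 0.373 without DKO 3, 0.599 over the 7 arrays of the first set and 0.309 over the 12 of the second. The part of fat cell content in the Cd36 and Lpl values was not tested.

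Oviduct and smooth muscle markers also differed in DKO. There 6692 of the 12379 genes tested lay above 0 and 5687 below 0, with 1.57% called higher and 1.45% lower. Of 5 oviduct markers tested, 3 were called higher, Wfdc2, Epcam and Cldn3 (median of the list 1.82), with summed signals of 1860.1 to 8961 in DKO against 680.2 to 1243 on its controls. Ovgp1, the oviduct glycoprotein, ran from 53.6 to 4679 among the DKO arrays and from 26.0 to 409 on the controls, and did not pass (limma adjusted p = 0.13). Of 10 smooth muscle markers tested, all lay below 0 and 5 were called lower (median -1.12), with summed signals of 9889 to 19140.0 in DKO against 22123 to 27825. Over the 19 arrays the median deviation of oviduct markers correlated with Lipg at r = -0.589 and with Abca1 at -0.353, and that of smooth muscle markers with Abca1 at 0.475 and with Cd36 at -0.451. The part of oviduct and smooth muscle RNA in the DKO values of the members was not tested.

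**Figure D5:**
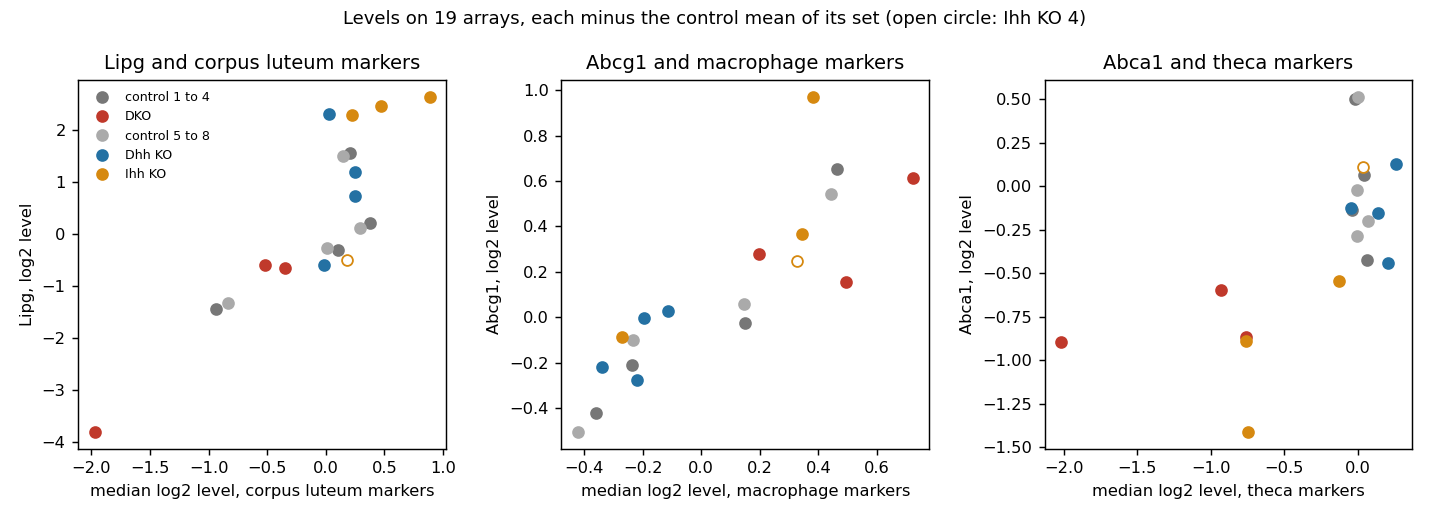
Log2 level of Lipg, Abcg1 and Abca1 (vertical axes) against the median log2 level of corpus luteum, macrophage and theca markers (horizontal axes) on each of the 19 arrays, each minus the control mean of its set; points are arrays coloured by group, and the open circle is the array labelled Ihh KO 4. The panels show the correlations of 0.848, 0.868 and 0.665, and DKO 3 stands apart in the Lipg panel, with corpus luteum markers at -1.97.

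Genes with a pattern like that of the members seen to change were ranked by Pearson correlation of log2 deviations over the 19 arrays. For Abca1 the closest were Vgll3 (r = 0.906), Nckap5 (0.902), Cacna2d1 (0.888) and Klf12 (0.878). For Lipg they were Tnfrsf9 (0.956), F10 (0.922), Mllt11 (0.912) and Saa1 (0.91). For Hilpda they were Ap1s1 (0.815), Tbc1d10b (0.81), Cdc25b (0.802) and Ciao1 (0.794). The closest genes were picked from the 12379 tested, leaving out predicted genes known only by a clone or Gm number. The arrays share groups and matched controls. Among the members, Abcg1 and Plin2 correlated at 0.719, Apoe and Hilpda at 0.679, and Lipg and Abca1 at -0.05 over the same arrays.

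Whether the loss of both ligands changed a member by more or less than the single losses added together was asked by the joint change. Of 12379 genes limma called 3, and 0 of the 6 tested members, with 1963 genes at an unadjusted p under 0.05. This fit takes the controls of both sets as independent. With matched controls as random blocks, at a correlation of 0.654, limma called 415 genes (274 without the array labelled Ihh KO 4) and again 0 of the 6 members with all arrays. Apoe had a joint change of 0.63 (SE 0.38, limma adjusted p = 0.43), or 0.63 with the blocks (SE 0.26, limma adjusted p = 0.161). With all 8 controls as 1 group the joint change of Apoe was 1.90 (limma adjusted p = 0.00193), in a fit that sets every mutant group against both sets of controls, whose Apoe means differed as given above.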

How the data were processed

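The 19 arrays measured ovarian RNA amplified from 50 ng of total RNA, per the labels' protocols. The authors deposited 1 linear intensity for each of 45101 probe sets on each array. The submitters' processing notes name MAS5 and give no version. Each array of deposited values had a mean of 500 once 2% of probe sets were trimmed from either end, and array medians ran from 101 to 159.8. They were not normalized again. The pseudocount added before log2 was 7.02 (10th percentile of the table). Probe sets under the 40th percentile of mean log2 (6.26, a signal of 69.4) were left out, and the brightest single-gene probe set stood for each gene, which gave 12379 genes. Controls 1 to 4, controls 5 to 8, Dhh KO, Ihh KO and DKO were fitted as 5 means with limma 3.58.1 in R 4.3.3 (lmFit, eBayes with trend, two-sided, Benjamini-Hochberg over all genes tested, threshold 0.05), in 4 comparisons. Tested on simulated data for DKO, the fit called 147 of 200 genes changed by 1 on the log2 scale and 11 unchanged genes. The number of arrays limits the precision.

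The members and lists were chosen with earlier results of these data known. Named were all 10 members and, from each pathway list, up to 4 other genes with the smallest p in any mutant comparison. Gene names came from the platform annotation, promoters from RefSeq (GRCm38.p6). Alternatives were other normalization, centring, pseudocount, filters, probe-set averaging, no variance trend, other sets of arrays or controls, blocks, and each array left out. Figures were drawn in Python 3.11.15 with matplotlib 3.10.9.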

Additional observations from a re-analysis of the deposited data

Results flagged for a closer look

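Within the groups of 4 arrays, a single array stood apart for 2 of the 36 combinations of member and group, and chance alone sets apart about 1 in 20. Nr1h3 read 81.2 on control 4, far below the other 3 controls of its set, with a gap of 0.937 of the group's range. Lipa read 1952 on Dhh KO 3, above the other 3 Dhh KO arrays, with a gap of 0.865 of the range. Neither gene was called in any comparison.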

How the results depend on the processing

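Over the alternatives run, none of the 6 tested members was called in Dhh KO, Ihh KO or DKO; with all 8 controls as 1 group, 1 was called for the joint change, Apoe. Abca1 kept a negative difference in Ihh KO and DKO under every alternative. DKO calls numbered 374 (194 higher, 180 lower) and became 225 (90 higher, 135 lower) under median centring, 287 (134 higher, 153 lower) under quantile normalization, 246 (110 higher, 136 lower) with a filter at the 60th percentile, 79 (24 higher, 55 lower) with only the arrays of the set and 594 with all 8 controls. Ihh KO calls numbered 2 and became 1 under median centring, averaged probe sets or no trend, 7 without a filter, and 0 with the 60th percentile filter, the arrays of the set alone or matched controls as random blocks. Dhh KO calls numbered 0 and became 1 with the 25th percentile pseudocount and 19 with all 8 controls. Joint calls numbered 3 and became 0 under quantile normalization, 6 with averaged probe sets, 22 without the trend, 415 with matched controls as blocks and 3608 with all 8 controls. Added after seeing the data: without the array labelled Ihh KO 4, matched controls as blocks gave 61 Ihh KO, 1 Dhh KO and 274 joint calls, and the arrays of the set alone gave 19 Ihh KO calls. Leaving out 1 array at a time gave 128 (without DKO 3) to 503 (without control 4) DKO calls, with 243 without control 1, 197 without control 3 and 228 without DKO 2. It gave 0 to 7 Dhh KO calls (7 without control 8, 1 without Ihh KO 4), 0 to 58 Ihh KO calls (58 without control 8, 48 without Ihh KO 4, 0 without any of the others) and 0 to 89 joint calls (89 without control 4, 57 without control 8, 25 without DKO 1, 9 without Ihh KO 3, 5 without DKO 2, 1 without control 1, 2 without Dhh KO 3 and 0 without any of the others). The cause was not tested for any of these. Median centring moved the median of all genes to 0.128 in Ihh KO (-0.02 as deposited) and to -0.108 in the joint change (0.08 as deposited). Signs turned under median centring for Nr1h3 in Ihh KO (0.002) and the joint changes of Abca1 (-0.137) and Abcg1 (-0.094); with averaged probe sets for the joint change of Abca1 (-0.041); with all 8 controls for Nr1h3 in Ihh KO (0.025), Apoe (0.325) and Hilpda (0.204) in DKO, and the joint changes of Abca1 (-0.136), Nr1h3 (-0.145) and Plin2 (0.442). Leaving out 1 array also turned signs, with ranges in Dhh KO of -0.245 to 0.022 for Abca1, -0.286 to 0.064 for Abcg1, -0.083 to 0.011 for Plin2 and -0.453 to 0.104 for Cd36. In Ihh KO they were -0.364 to 0.03 for Nr1h3 and -0.01 to 0.261 for Lipa. In DKO they were -0.204 to 0.053 for Apoe, -0.241 to 0.118 for Nr1h3, -0.086 to 0.042 for Hilpda and -0.357 to 0.12 for Lipa. For the joint change they were -0.295 to 0.313 for Abca1, -0.272 to 0.428 for Abcg1, -0.295 to 0.012 for Plin2, -0.398 to 0.138 for Lipa and -0.066 to 0.741 for Cd36. The labels do not say what the replicate numbers share, and not every same-numbered pair correlated above 0.1 between mutants and controls: DKO and control arrays stood at 0.158, 0.274 and 0.0743, and Dhh KO arrays and controls 1 to 4 at 0.289, 0.0976, 0.43 and 0.216. Same-numbered Dhh KO and DKO arrays, which are not compared here, stood at 0.204, 0.133 and 0.177. The numbers were not taken as pairs. With the replicate block DKO calls numbered 363 and Hilpda in DKO stood at 0.005. The other comparisons could not be estimated with the block, since controls 5 to 8 share no number with the single knockouts.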
